A study of Mus musculus with 6 samples.

Results

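The nuclear genes of oxidative phosphorylation were examined in 6 clones of mpkCCDc11, an immortalised line of mouse kidney collecting duct cells. The genes were chosen by symbol: Nduf genes for complex I, Sdh genes for complex II, Uqcr genes for complex III, Cox4 to Cox8 genes for complex IV and Atp5 genes for complex V. The rule found 79 genes among the 20896 transcripts of the read table, which holds 1 transcript per gene. Complex I had 37 of them (7 core subunits, 24 accessory subunits and 6 assembly factors), complex II had 3, complex III 8, complex IV 17 and complex V 14. All 79 are protein-coding, 76 on autosomes and 3 on the X chromosome. The subunits encoded by mitochondrial DNA, and nuclear subunits with no row under these symbols, were not analysed here.

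The 3 control clones and the 3 clones with a double knockout of protein kinase A (PKA dKO) were all derived from the mpkCCDc11 line. Cells of both groups grew for 4 days on permeable supports in 2% serum with insulin, dexamethasone, triiodothyronine, epidermal growth factor, selenite and transferrin. They then spent 3 days in medium free of serum and hormones with 0.1 nM dDAVP, an agonist of the vasopressin V2 receptor that raises cyclic AMP in these cells. No group without dDAVP is described, so the comparison is of clones labelled control and PKA dKO in the presence of the agonist. Each library comes from a single clone, neither the edited genes nor the age of the clones is named, and p-values measure the spread between 3 clones per group.

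Oxidative phosphorylation is the work of 5 complexes in the mitochondrial inner membrane. Complexes I and II take electrons from NADH and succinate, complex III passes them on to cytochrome c, complex IV reduces oxygen, and complex V makes ATP from the proton gradient that complexes I, III and IV build. Kidney tubule cells spend much of this ATP on ion transport, and PKA is known to raise mitochondrial biogenesis in several tissues through CREB and the coactivator Ppargc1a.

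The libraries held 28596444 to 42515838 reads over the table, and the 79 genes together took 236041 to 392587 of them, or 0.762% to 0.958%. A pair of libraries, control clone 1 and dKO clone 3, differed from the remaining 4. In this pair 2443 and 2363 transcripts had no read, against 863 to 1045. Of 1351 olfactory and vomeronasal receptor transcripts, 50.8% and 51.0% had a read in the pair, against 81.9% to 87.4%. The reads in the table were 48.7% and 48.1% of the library total that the FPKM values imply in the pair, against 31.7% to 39.9%. As a check of the labels, Prkaca, which encodes a PKA catalytic subunit, had 99.8 ± 29.6 CPM (SD, n = 3) in the controls and 7.52 ± 0.92 in the dKO clones. Prkacb, which encodes the other widespread catalytic subunit, had 121 ± 14.6 and 103 ± 3.43 CPM (log2 difference -0.23, not called). RNA levels do not show whether a functional protein is made from either gene, so loss of PKA activity rests on the labels here. CPM here is the share of a library's reads on the usual CPM scale, after TMM scaling. Epithelial markers (Cdh1, Epcam, Krt8 and Krt18) summed to 3828 to 4590 CPM. Of the principal cell markers, all 6 had reads, with a sum of 983 to 1444 CPM. Aqp2, the vasopressin-regulated water channel, fell from a mean of 232 to 2.64 CPM. Of the 6 markers, 3 had a positive and 3 a negative log2 difference (-6.30 to 0.53). Only 1 of them was called, lower in the dKO clones, where 0.168% of all features tested were called. Markers of other cells were low: proximal tubule markers summed to 7.88 to 13.6 CPM, intercalated cell markers to 18.0 to 43.8, striated muscle markers to 9.31 to 19.3, fibroblast markers to 0.913 to 4.06 and leukocyte markers to 0.926 to 5.96.

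No oxidative phosphorylation gene changed between the groups at an adjusted p below 0.05. Of the 79 genes, 74 passed the filter on low reads, and 0 of these 74 were called by limma-trend on log2(scaled reads + 1), where 0.168% of all 16683 features tested were called (28 genes). With recovered reads, edgeR's quasi-likelihood test also called 0 of the 74 (0.168% of all features), and DESeq2 called 0 of them (1.25% of all features). At an unadjusted p below 0.05, 1 of the 74 genes was lower in the dKO clones (3.84% of all features) and 0 were higher (2.4%), against 6.25% of all features in either direction. In the authors' deposited table of the same comparison, 71 of the genes are listed and 0 have an FDR below 0.05, where 3.47% of all listed genes do. The deposited table gives 5 of these genes a P value below 0.05 (12.5% of all listed genes): Ndufs8, Ndufv1 and Ndufs1 with a positive log2 fold change, Cox6c and Ndufa7 with a negative one.

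The intervals around these differences were narrow for most of the genes. The 95% interval of the fold change lay within 1.5-fold of no difference for 61 of the 74 genes (82.4%), against 40.4% of all features tested, and within 2-fold for 72 (97.3%, against 59.3%). The 1.5-fold share was 85.5% for mitochondrial ribosomal protein genes, 88.2% for the tricarboxylic acid cycle and 77.5% for respiratory genes outside the symbol rule. All features tested include genes just above the filter on low reads, and no comparison at like level was made. The log2 differences ran from -0.50 for Cox4i2 to 0.39 for Cox7a1, both genes with few reads. The median was 0.06 (dKO over control), beside -0.00 over all features tested, with 48 genes positive and 26 negative. In bulk RNA, fewer cells and less RNA per cell cannot be told apart, and a difference in total RNA per cell is not visible after scaling.

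**Figure D1:**
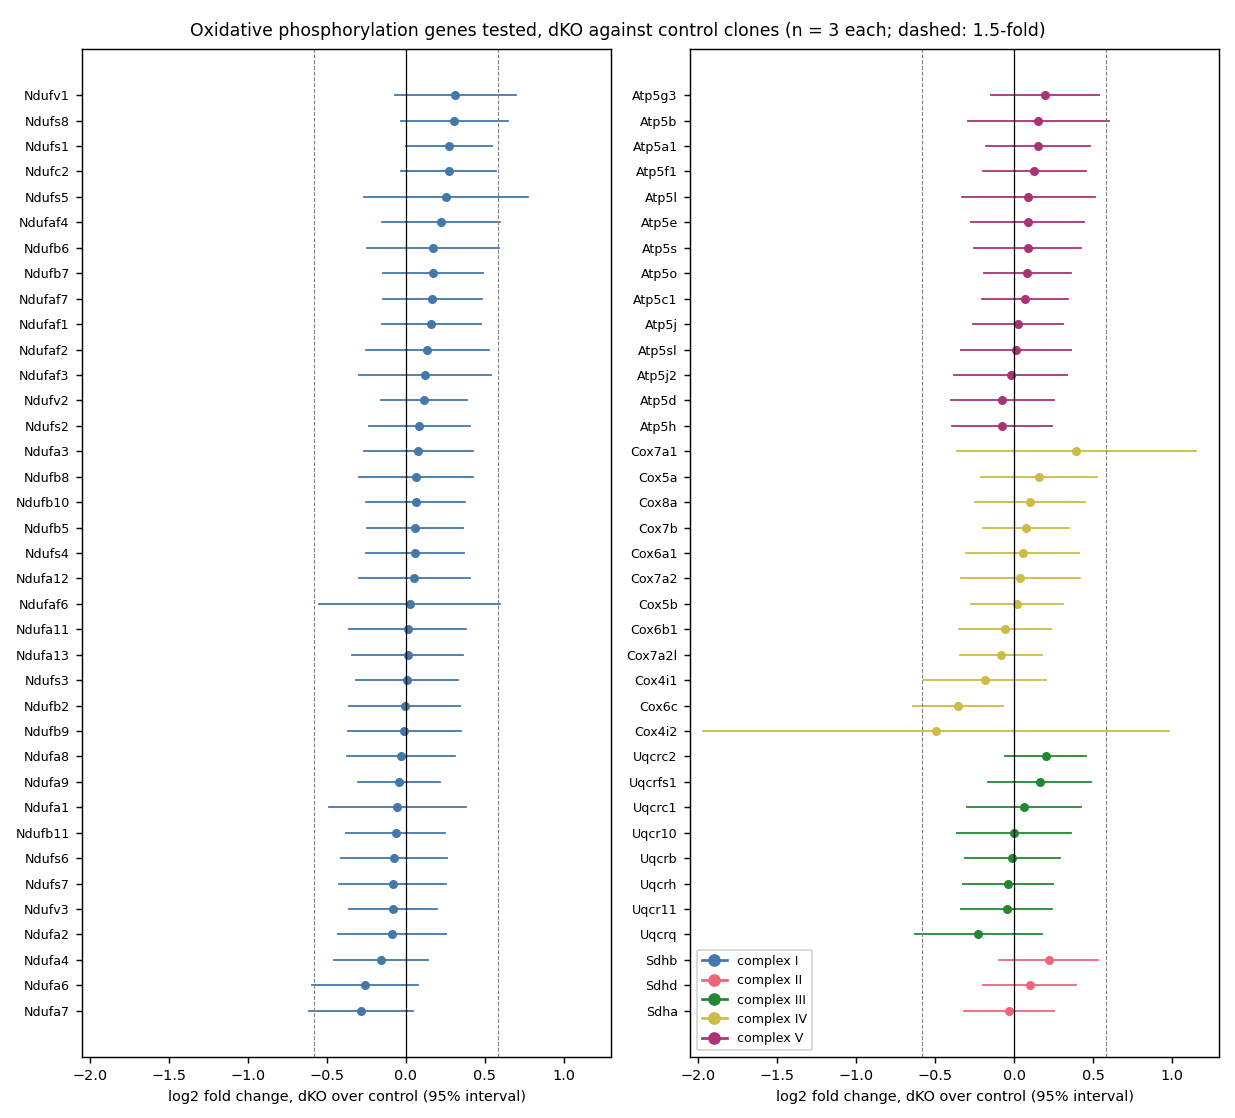
Log2 fold change of each tested gene (points, dKO over control, 3 clones per group) with its 95% interval (lines), coloured by complex; dashed lines mark 1.5-fold. Points run from -0.50 (Cox4i2) to 0.39 (Cox7a1), and the interval of Cox6c alone leaves out 0.

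The median over the genes varied between the clones of each group. As log2 deviations from the mean of the 6 libraries, the median over the 74 genes was -0.00 in control clone 1, -0.15 in control clone 2 and 0.09 in control clone 3. It was -0.04 in dKO clone 1, -0.10 in dKO clone 2 and 0.20 in dKO clone 3. The groups overlapped: 52 of the 74 genes had their highest value in dKO clone 3, while 35 had their lowest in control clone 2 and 19 in dKO clone 2. With control clone 1 and dKO clone 3 both left out, the median difference was -0.04, with 29 of 74 genes positive. It was also -0.04 without dKO clone 3 alone, and -0.02 without control clone 2. Between that pair, dKO clone 3 minus control clone 1, it was 0.22. The part of what sets the pair apart in the small positive median was not tested.

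**Figure D2:**
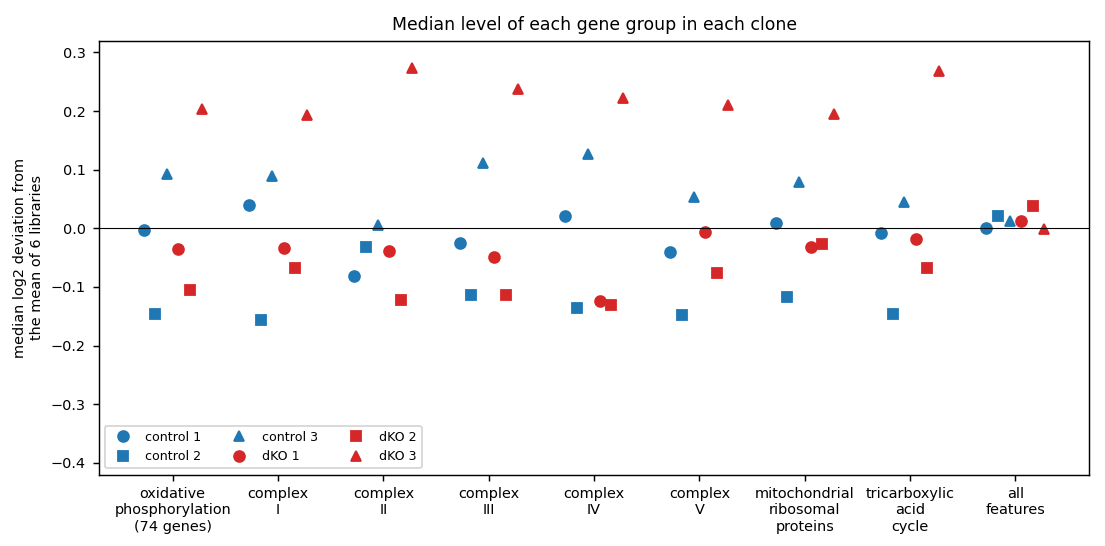
Median log2 deviation from the mean of 6 libraries for each gene group (x axis), with a point per clone. In each plotted group of mitochondrial genes the highest point is dKO clone 3 (0.20 over the 74 genes), while the medians over all features lie close to 0.

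Summed per transcript length, the 79 genes made up 1.42%, 1.40% and 1.52% of all FPKM in control clones 1, 2 and 3. The share was 1.56%, 1.45% and 1.71% in dKO clones 1, 2 and 3. The means were 1.45 ± 0.06% and 1.57 ± 0.13% (SD, n = 3), and dKO clone 2 lay within the control range. Complex V took the largest share of this in both groups (0.454 ± 0.024% in the controls and 0.515 ± 0.047% in the dKO clones). Complex I followed (0.437 ± 0.020% and 0.471 ± 0.030%), then complex IV (0.377 ± 0.017% and 0.394 ± 0.043%). The groups overlapped in complexes I, III, IV and V. In complex II they did not, at 0.0329% to 0.0348% in the controls and 0.0352% to 0.0416% in the dKO clones. This order was not particular to complex II. The tricarboxylic acid cycle had 0.153% to 0.156% and 0.163% to 0.190%, and mitochondrial ribosomal protein genes 0.341% to 0.351% and 0.357% to 0.397%. Regulators of mitochondrial biogenesis had 0.0432% to 0.0443% and 0.0486% to 0.0509%. As median log2 deviations complex II overlapped (-0.08, -0.03 and 0.005 in the controls, -0.04, -0.12 and 0.27 in the dKO clones).

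Complex I, NADH dehydrogenase, takes electrons from NADH through a peripheral arm of flavin and iron-sulfur proteins. Of its 37 genes, all tested, 0 passed the threshold, and the median log2 difference was 0.06 with 24 positive and 13 negative. Without control clone 1 and dKO clone 3 it was -0.03 with 17 positive. The 7 core subunits had a median of 0.11 with 6 positive. The 24 accessory subunits had a median of 0.00 with 12 in each direction. The 6 assembly factors, which build the complex and then leave it, were all positive with a median of 0.15. Their individual log2 differences ran from 0.02 to 0.22, smaller than 2 standard errors in each case. Without that pair of clones the medians were 0.08 for the core subunits (5 of 7 positive), -0.06 for the accessory subunits (8 of 24) and 0.08 for the assembly factors (4 of 6).

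Ndufs1, the largest iron-sulfur core subunit with 19 exons at chr1:63143735-63176732, minus strand, had the lowest p of complex I. Its values were 117, 101 and 107 CPM in the controls and 129, 121 and 142 CPM in the dKO clones. All dKO values lay above all control values. The log2 difference was 0.27 ± 0.12 (SE; limma-trend adjusted p = 0.804). Ndufc2, a small membrane-arm subunit at chr7:97400003-97407802, plus strand, read 30.5, 29.6 and 33.9 CPM in the controls and 37.2, 35.2 and 41.0 in the dKO clones, also without overlap (log2 difference 0.27). The assembly factors Ndufaf1 and Ndufaf7 and the complex III subunit Uqcrc2 were the other genes whose dKO values all lay above the control values. Together these were 5 of 74 genes (6.76%), where 5.17% of all features tested had the same order, so the share is near the background.

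Ndufv1 encodes the flavin-binding subunit that meets NADH, and Ndufs8 an iron-sulfur subunit further along the electron path. Both lie on chromosome 19, Ndufs8 at chr19:3908870-3912717 and Ndufv1 at chr19:4007497-4012806, minus strand. Ndufs8 had 90.1, 70.5 and 85.4 CPM in the controls and 96.1, 88.0 and 121 in the dKO clones. Ndufv1 had 220, 177 and 214 CPM in the controls and 218, 221 and 330 in the dKO clones. For both, the groups overlapped and dKO clone 3 was highest. Each had a log2 difference of 0.31, with a standard error of 0.15 for Ndufs8 and 0.17 for Ndufv1 (limma-trend adjusted p = 0.880 and 0.937). The median over all tested genes of chromosome 19 was also higher in dKO clones 2 and 3 (0.11 and 0.15, against -0.10 to -0.01 in the controls), and with chromosome medians removed both log2 differences were 0.18. The part of that shift in these values was not tested.

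Ndufa7 and Ndufa6 were the complex I genes with the lowest log2 differences. Both encode small accessory subunits of the peripheral arm. Ndufa7 (chr17:33824591-33838316, plus strand) had 89.8, 85.3 and 93.9 CPM in the controls and 74.9, 60.2 and 88.0 in the dKO clones, with dKO clone 3 inside the control range. Its log2 difference was -0.29 ± 0.15 (SE; limma-trend adjusted p = 0.904). Ndufa6 (chr15:82350139-82354291, minus strand) had 103, 101 and 109 CPM in the controls and 83.6, 72.3 and 108 in the dKO clones, again overlapping through dKO clone 3. Its log2 difference was -0.26 over 6 libraries and -0.43 without control clone 1 and dKO clone 3 (limma-trend adjusted p = 0.052; 0.052 to 1.00 over the alternatives). With chromosome medians removed, over 6 libraries, the Ndufa6 difference was -0.13. Ndufs5, another accessory subunit, varied most between clones among the complex I genes, with a range of 0.91 on the log2 scale, from 6.14 CPM in control clone 1 to 11.6 CPM in dKO clone 3.

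Ndufa4 was the highest complex I gene per transcript length, at 272 CPM per kilobase. Its symbol places it in complex I, although its protein is now known as a subunit of complex IV. It had 141, 113 and 141 CPM in the controls and 129, 115 and 109 in the dKO clones, with a log2 difference of -0.16. Ndufa4 lies on chromosome 6, where the median of all tested genes was -0.40 in dKO clone 3, the library in which Ndufa4 was lowest. With chromosome medians removed its log2 difference was 0.01. The part of chromosome 6 in the Ndufa4 difference was not tested.

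Complex II, succinate dehydrogenase, also catalyses a step of the tricarboxylic acid cycle. Sdha (flavoprotein), Sdhb (iron-sulfur protein) and Sdhd (membrane anchor) were in the table. Sdhb had 64.4, 57.2 and 68.4 CPM in the controls and 76.7, 62.7 and 83.0 in the dKO clones, and dKO clone 2 lay inside the control range (log2 difference 0.22). Sdha had 162, 146 and 140 CPM in the controls and 143, 132 and 164 in the dKO clones. Sdhd had 126, 135 and 139 CPM in the controls and 134, 129 and 166 in the dKO clones. Their log2 differences were -0.03 and 0.10, each smaller than its standard error of 0.13. The median of the 3 genes was 0.10, and -0.05 without control clone 1 and dKO clone 3.

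Complex III, the cytochrome bc1 complex, had a median log2 difference of -0.00 over 8 genes, with 4 positive and 4 negative. The 3 core genes Uqcrc1, Uqcrc2 and Uqcrfs1 were all positive (median 0.16), and 4 of the 5 accessory genes were negative (median -0.04). Without control clone 1 and dKO clone 3 the core median was 0.010 with 2 of 3 positive, and that of all 8 genes was -0.08 with 2 positive. Uqcrc2, a core protein of the matrix arm at chr7:120635176-120659524, plus strand, had 102, 94.9 and 102 CPM in the controls and 112, 109 and 122 in the dKO clones. All its dKO values lay above the controls, with a log2 difference of 0.20 ± 0.12 (SE; limma-trend adjusted p = 0.952). Uqcrfs1, the Rieske iron-sulfur protein, had 99.2, 92.7 and 115 CPM in the controls and 104, 104 and 137 in the dKO clones, which overlapped. Uqcrq, a small accessory subunit, had 29.8, 29.0 and 33.1 CPM in the controls and 24.4, 21.3 and 34.5 in the dKO clones. Its log2 difference was -0.23, and dKO clones 1 and 2 lay below the controls while dKO clone 3 lay above them. Uqcr11 was highest per length in this complex (213 CPM per kilobase), with 82.1, 97.2 and 106 CPM in the controls and 96.7, 87.6 and 90.1 in the dKO clones.

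Complex IV, cytochrome c oxidase, held the gene with the lowest p of all 74. Cox6c encodes a small subunit that spans the inner membrane and lies at chr15:35931976-35938246, minus strand, with 4 exons. It had 120, 115 and 124 CPM in the controls and 89.6, 84.4 and 107 in the dKO clones. Every dKO value lay below every control value, the only gene of the 74 with that order (1.35%, against 5.68% of all features tested). The difference was -0.36 ± 0.13 on the log2 scale (SE; 95% interval -0.64 to -0.07), which is 1.28-fold lower in the dKO clones. It did not pass after adjustment over all genes (limma-trend adjusted p = 0.568; edgeR's quasi-likelihood test, 0.625). The authors' deposited table gives Cox6c a log2 fold change of -0.38 and an FDR of 0.0874.

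The Cox6c value moved with the libraries and the chromosome considered. With control clone 1 and dKO clone 3 both left out it was -0.45 (limma-trend adjusted p = 0.027; 0.027 to 1.00 over the alternatives), the sole call among the 74 genes in a fit that called 3.39% of all features. With chromosome medians removed it was -0.23. The median over all tested genes of chromosome 15 was -0.02, 0.18 and 0.09 in the controls, in clone order, and -0.04, -0.05 and -0.06 in the dKO clones. Ndufa6 and Ndufb9, the other tested complex I to V genes on that chromosome, had log2 differences of -0.26 and -0.01. With chromosome medians removed these were -0.13 and 0.12. The part of chromosome 15 in the Cox6c difference was not tested.

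**Figure D3:**
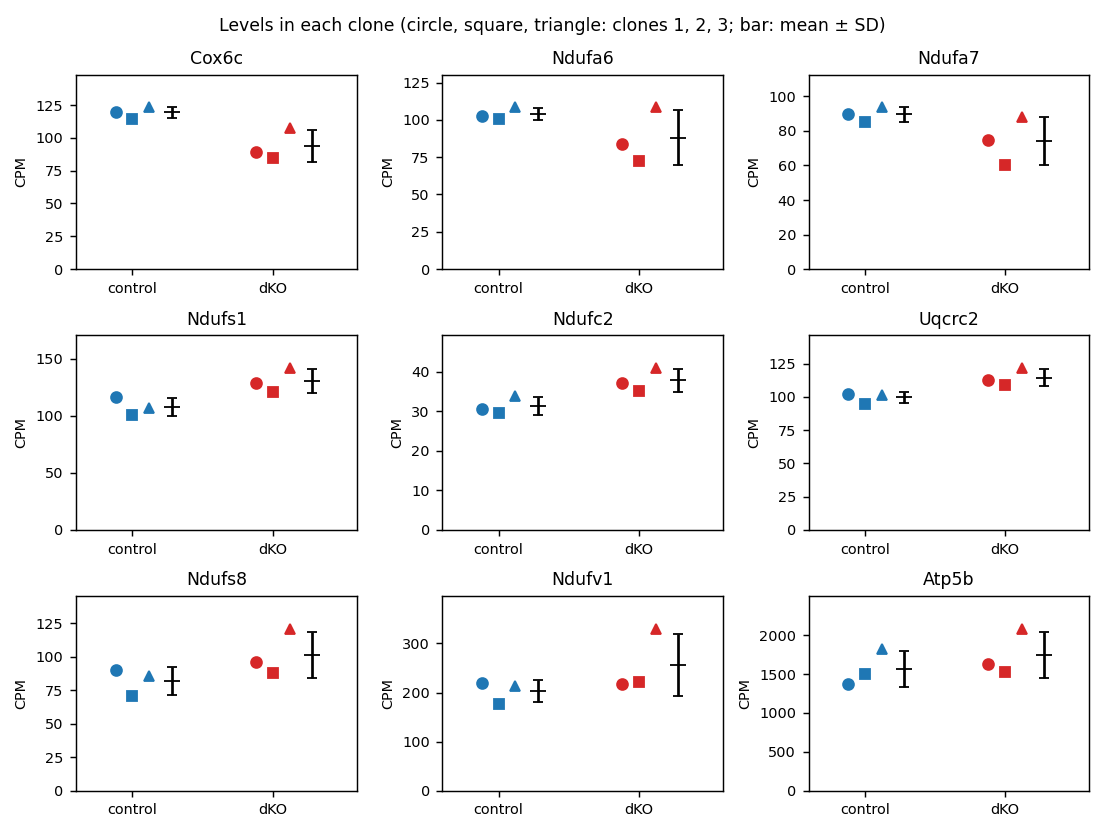
CPM in each clone for 9 genes (circles, squares and triangles are clones 1, 2 and 3; blue control, red dKO; bars are mean ± SD, n = 3). Cox6c has its highest dKO value (107) below its lowest control value (115), and for Ndufs1, Ndufc2 and Uqcrc2 all dKO values lie above the controls.

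Over the 12 complex IV genes tested, the median log2 difference was 0.03 with 7 positive and 5 negative, and -0.10 with 3 positive without control clone 1 and dKO clone 3. Cox4i1, a nuclear subunit that joins early in assembly, had 397, 309 and 401 CPM in the controls and 288, 285 and 408 in the dKO clones. The dKO clones 1 and 2 lay below all controls and dKO clone 3 above them, for a log2 difference of -0.18 ± 0.17 (SE). Cox7a1 had the highest log2 difference of all, 0.39 ± 0.34 (SE), from 1.83, 2.16 and 3.20 CPM in the controls to 3.19, 2.53 and 3.62 in the dKO clones. These groups overlapped, and the range between clones (0.97 on the log2 scale) was the widest among the genes with at least 2 CPM.

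Several complex IV subunits come as pairs of genes, a general form and a form known from heart and skeletal muscle, lung or testis, and the clones used the general forms in both groups. Per transcript length, Cox4i1 ran from 378 to 541 CPM per kilobase over the 6 clones, and the lung form Cox4i2 from 0.430 to 1.19, on 11 to 26 reads. Cox6a1 ran from 346 to 494 and the muscle form Cox6a2 from 0.037 to 0.535. Cox8a ran from 379 to 556, the muscle form Cox8b from 0.0917 to 0.697, and Cox8c from 0 to 0.476. Cox6b1 ran from 166 to 214 and the testis form Cox6b2 from 0.102 to 0.990, and Cox7b ran from 59.0 to 69.6 against 0 to 0.178 for Cox7b2. Cox7a1, a muscle form, was the exception in degree: it ran from 4.75 to 9.42, beside 78.5 to 122 for Cox7a2 and 112 to 133 for Cox7a2l, which encodes a factor that joins complexes into supercomplexes. The ranges of the forms in each pair did not overlap in any clone. Cox6a2, Cox6b2, Cox7b2, Cox8b and Cox8c, with at most 17 reads in a library, were the 5 genes left out of the test. Cox7b2 and Cox8c had no read in some clones, where a count of 0 allows up to 3 reads.

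**Figure D4:**
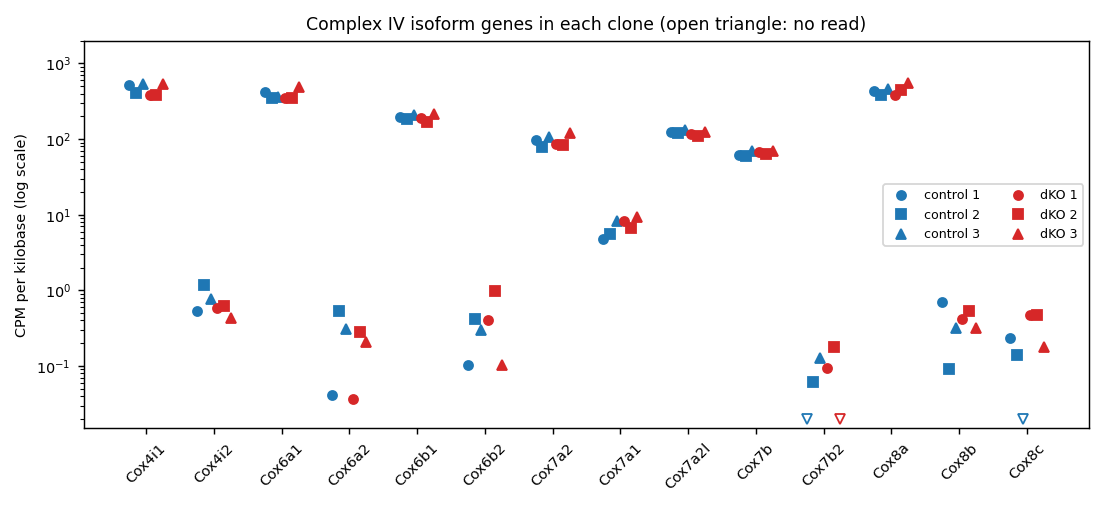
CPM per kilobase on a log scale for complex IV isoform genes, a point per clone (blue control, red dKO; open triangles mark no read). The general forms lie between 59.0 and 556, Cox7a1 between 4.75 and 9.42, and the other tissue forms below 1.2.

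The bases upstream of these forms are shown because the pairs differ so widely in level. They come from RefSeq (GRCm38.p6), with exon bases removed, 5′ to 3′ on the gene's own strand, and the capitals mark CG dinucleotides. Cox7a2 (chr9:79759879-79760103, minus strand) has 12 of them and Cox7a1 (chr7:30183921-30184143, plus strand) has 3. Cox8a (chr19:7217617-7217866, minus strand) has 11 and Cox8b (chr7:140900447-140900696, minus strand) has 1.
Cox7a2: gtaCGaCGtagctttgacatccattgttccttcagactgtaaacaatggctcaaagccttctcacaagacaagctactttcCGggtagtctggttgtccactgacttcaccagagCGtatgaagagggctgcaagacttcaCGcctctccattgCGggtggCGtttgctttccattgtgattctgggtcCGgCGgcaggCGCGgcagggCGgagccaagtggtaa
Cox7a1: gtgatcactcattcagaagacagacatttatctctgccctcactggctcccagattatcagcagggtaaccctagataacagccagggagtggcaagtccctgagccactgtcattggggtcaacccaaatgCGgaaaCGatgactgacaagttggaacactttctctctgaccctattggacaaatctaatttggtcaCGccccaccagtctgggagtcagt
Cox8a: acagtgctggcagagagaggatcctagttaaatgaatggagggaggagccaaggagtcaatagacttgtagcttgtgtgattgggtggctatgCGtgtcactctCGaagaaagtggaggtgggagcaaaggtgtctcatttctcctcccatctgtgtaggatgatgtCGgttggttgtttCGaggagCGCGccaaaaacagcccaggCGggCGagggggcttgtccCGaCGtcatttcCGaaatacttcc
Cox8b: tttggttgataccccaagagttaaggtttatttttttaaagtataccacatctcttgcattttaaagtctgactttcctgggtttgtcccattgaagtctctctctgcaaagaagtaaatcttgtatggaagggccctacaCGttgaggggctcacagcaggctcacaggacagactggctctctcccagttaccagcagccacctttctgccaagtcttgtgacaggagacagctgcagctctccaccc
In both pairs the form with more reads has more CG dinucleotides in this window, which is a description of these 4 sequences, chosen after their levels were seen.

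Upstream bases of the genes as a group were read in the same table, which held 62 of the 79. The median number of CG dinucleotides in 250 bases was 14, against 6 over 27025 genes. Where a gene had several sequences, the one nearest the deposited transcript start was read for the 62, and the first listed for all genes. The 27025 genes were not limited to those with reads in these clones. Nuclear respiratory factors are known to act on many genes of oxidative phosphorylation, NRF1 on a GC-rich palindrome and the ETS factor Gabpa (also called NRF2) on a core with GGAA. The letters GCGCATGC, taken as an NRF1 core and searched on both strands, were found upstream of 7 of the 62 genes (11.3%, against 2.32% of all genes): Atp5l, Cox6a1, Ndufa11, Ndufa6, Ndufa8, Ndufaf4 and Sdhb. The letters CCGGAAG, taken as an ETS core, were found upstream of 12 (19.4%, against 7.05%). The letters AAGATGGC, taken as a YY1 core, were found upstream of 0 (against 1.59%). The NRF1 and ETS letters each hold a CG, and no comparison with genes of a like number of CG dinucleotides was made. Cox6a1 held both of the first kinds within its 250 bases, and its longest run free of exons (chr5:115348982-115349129, minus strand) holds the NRF1 core on both strands, overlapping, marked in capitals.
Cox6a1: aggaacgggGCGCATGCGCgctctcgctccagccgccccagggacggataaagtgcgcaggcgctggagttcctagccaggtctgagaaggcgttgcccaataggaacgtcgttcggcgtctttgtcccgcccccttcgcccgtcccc
A match is of letters only, and the motifs were chosen after the expression values were seen.

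Complex V, ATP synthase, held the highest gene of the whole set. Its 14 genes, grouped by symbol, are 12 subunits and the factors Atp5s and Atp5sl. These 2 factors were placed here by name alone. The median log2 difference over the 14 genes was 0.08 with 11 positive and 3 negative. Without control clone 1 and dKO clone 3 it was -0.0067, with 6 of the 14 positive. Atp5b, the catalytic beta subunit at chr10:128083273-128090391, plus strand, had 1374, 1505 and 1817 CPM in the controls and 1633, 1521 and 2083 in the dKO clones, and the groups overlapped. The log2 difference was 0.15 ± 0.20 (SE), and it was -0.070 without control clone 1 and dKO clone 3. Atp5a1, the alpha subunit, had 590, 520 and 631 CPM in the controls and 607, 602 and 724 in the dKO clones. Atp5f1, a subunit of the peripheral stalk, had 285, 239 and 277 CPM in the controls and 276, 257 and 347 in the dKO clones. Atp5g3, which encodes the membrane ring subunit c, had 142, 116 and 143 CPM in the controls and 142, 135 and 187 in the dKO clones. In Atp5a1, Atp5f1 and Atp5g3 alike control clone 2 was lowest, dKO clone 3 was highest and the groups overlapped (log2 differences 0.15, 0.13 and 0.20).

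Levels between genes differed far more than levels between groups. Per transcript length, the median was 72.1 CPM per kilobase over the 79 genes, and 69 of them were above 10. Atp5b was highest at 874, followed by Cox4i1 at 461, Cox8a at 442 and Cox6a1 at 387. By complex, the medians were 53.6 for complex I, 61.1 for complex II, 80.9 for complex III, 95.6 for complex IV and 179 for complex V. Among the tested genes Cox4i2 was lowest at 0.690. The median range between the lowest and highest clone was 0.48 on the log2 scale, against 0.77 over all features tested. It was 0.49 for mitochondrial ribosomal protein genes, 0.47 for the tricarboxylic acid cycle and 0.53 for respiratory genes outside the symbol rule. The transcripts are short, with a median length of 723 bases against 2738 for all tested.

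Other genes of the respiratory chain and of mitochondria gave similar values. Of the 40 tested genes for respiratory proteins and assembly factors outside the symbol rule, 0 were called, with a median log2 difference of 0.07 and 26 positive. The lowest p values there belonged to Higd1a, a hypoxia-induced inner membrane protein (0.43), Ecsit, a complex I assembly factor (0.33), and Aifm1, an inner membrane flavoprotein (0.25). Cytochrome c, the carrier between complexes III and IV, had 42.7 ± 8.25 CPM in the controls and 44.8 ± 3.83 in the dKO clones (Cycs, n = 3 each). Of the 62 mitochondrial ribosomal protein genes, which serve translation of the mitochondrial subunits, 0 were called, with a median of 0.07 and 43 positive. Their median per library was again highest in dKO clone 3 (0.20) and lowest in control clone 2 (-0.12). The lowest p values in that list were those of Mrpl52 (-0.47), Mrps27 (0.26) and Mrpl57 (-0.27). Of 17 genes of the tricarboxylic acid cycle and pyruvate dehydrogenase, 0 were called, with a median of 0.11 and 13 positive. The lowest p values were those of Suclg2 (-0.23), Pdhb (0.27) and Dlat (0.22). Without control clone 1 and dKO clone 3, the median of the respiratory genes outside the symbol rule was -0.04, with 19 of 40 positive. That of the mitochondrial ribosomal protein genes was -0.02 (27 of 62), and that of the tricarboxylic acid cycle 0.03 (12 of 17).

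Regulators of mitochondrial biogenesis were not called either, 0 of 19, with a median log2 difference of 0.06, 12 positive and 7 negative. Without control clone 1 and dKO clone 3 the median was -0.01, with 8 positive. Ppargc1a, the coactivator that is a known target of CREB, had 11.8, 29.5 and 42.6 CPM in the controls and 37.1, 47.7 and 90.6 in the dKO clones. The groups overlapped, with control clone 1 lowest and dKO clone 3 highest. Its log2 difference was 1.14 ± 0.42 (SE; limma-trend adjusted p = 0.597), and 0.25 without control clone 1 and dKO clone 3. Gabpa, the DNA-binding subunit of the ETS factor above, had 147 ± 7.41 CPM in the controls and 173 ± 13.3 in the dKO clones, without overlap (log2 difference 0.23). All dKO values lay above the controls for 2 of the 19 regulators and for 5.17% of all features tested. They lay below the controls for 1 of the 19 and for 5.68% of all features tested. Mterf1a, a mitochondrial transcription terminator, had a log2 difference of 0.50.

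Among 11 genes listed for hypoxia-inducible factors and mitochondria, 2 were called, both higher in the dKO clones. Over all features tested, 0.168% were called, 9 genes higher and 19 lower. The median log2 difference of the 11 genes was 0.0044, with 6 positive and 5 negative. Without control clone 1 and dKO clone 3 that median was 0.13, with 9 positive. Bnip3, a mitophagy receptor, had 28.2, 20.4 and 23.6 CPM in the controls and 57.4, 78.0 and 49.0 in the dKO clones, 2.53-fold higher (log2 difference 1.34 ± 0.19, SE; limma-trend adjusted p = 0.025). Egln3, a prolyl hydroxylase, had 21.9, 16.0 and 17.7 CPM in the controls and 40.0, 48.5 and 33.9 in the dKO clones, 2.19-fold higher (limma-trend adjusted p = 0.038). Both lost the call without dKO clone 1 (limma-trend adjusted p = 0.080 for Bnip3 and 0.148 for Egln3) and without dKO clone 2 (0.103 and 0.182). Egln3 lost it also without control clone 2 or 3 (0.080 and 0.067), with fold changes of the same direction in each case. Pdk1, which inhibits pyruvate dehydrogenase, had 165, 139 and 124 CPM in the controls and 226, 269 and 211 in the dKO clones, without overlap (log2 difference 0.72, limma-trend adjusted p = 0.114, and 0.014 without control clone 1). In that list 4 of the 11 genes had all dKO values above the controls, an order found in 5.17% of all features tested. The respiratory chain genes of that list were not called. Cox4i2 had 0.387, 0.851 and 0.553 CPM in the controls and 0.423, 0.443 and 0.309 in the dKO clones, and Ndufa4l2 had 0.664 to 1.34 CPM in the controls and 1.33 to 1.38 in the dKO clones. At these few reads the 95% interval of the Cox4i2 difference ran from -1.97 to 0.98 on the log2 scale.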

How the data were processed

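Stranded libraries were made by random priming from 262 ng of total RNA per clone (3 control, 3 PKA dKO) after removal of ribosomal RNA, per the labels' protocols. Tools listed in the submitters' processing notes are edgeR, HOMER 4.8, SAMtools and STAR 2.5.2a, with the build GRCm38.p5. The sources used here do not say how reads were assigned to genes. Overlapping genes and near-identical copies, including processed pseudogenes of these genes, may therefore share reads.

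The deposited read columns are a signal: the authors scaled reads to a common total, and every value was a whole multiple of a step per library (0.427 to 0.635; 100% whole within 0.01), which gave back the reads. The deposited FPKM values were used for shares of summed FPKM. The authors' deposited table of log2 fold changes, log2 CPM, p-values and FDR was used only where named.

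From these, log2(scaled reads / TMM factor + 1) was fitted with limma 3.58.1 (limma-trend, R 4.3.3) on 16683 features; 4213 with low reads (edgeR 4.0.16 filterByExpr, minimum count 10, total 15) were left out. P-values were adjusted by Benjamini-Hochberg over all features, threshold 0.05. edgeR and DESeq2 1.42.0 on recovered reads were alternatives, beside other scalings, pseudocounts and filters and leaving out each clone. Replicate numbers share no stated culture or day.

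The gene rule and the lists were chosen with earlier results of these data known. Genes named are, per complex, the 3 with the lowest p and the highest by FPKM, the isoform genes, the 5 highest and lowest log2 fold changes and 3 widest ranges above 2 CPM, and 3 per companion list by p. Others were named after their values were seen: Ndufaf1, Ndufaf7, Uqcrc1, Ndufb9, Cox7b, Cox7b2, Cycs, Ndufa4l2 and the genes named for a motif. Coordinates are those of the deposited table (GRCm38). Libraries within a group differed by more than sampling noise (chi-square per degree of freedom 19.1 to 69.1).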

Additional observations from a re-analysis of the deposited data

How the results depend on the processing

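The number of called genes among the 74 was 0 in every alternative run except the fit within 4 libraries, which called 1 (Cox6c); leaving out each clone gave 0 to 0. The median log2 difference stayed within the spread between clones in all of them, but its sign turned within the 4 libraries (-0.04), without dKO clone 3 (-0.04) and without control clone 2 (-0.02). The count over all genes, 28, was 17 with no factor beyond the authors' common total, 91 on log2(FPKM + 0.1), 209 with DESeq2, 566 within the 4 libraries and 71 with a term for control clone 1 and dKO clone 3, and leaving out each clone gave 11 to 138. With group means removed, the same-numbered clones correlated at -0.36, 0.64 and -0.34. Control clone 1 and dKO clone 3, which stand apart, carry different numbers. These correlations therefore cannot decide whether same-numbered clones were handled together. With a replicate block 196 genes were called and 0 of the 74.

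Of 28 oxidative phosphorylation genes followed singly, 10 changed sign somewhere, none of them called there. Within the 4 libraries the log2 differences that turned were Atp5b -0.070, Cox6a1 -0.026, Cox7a2 -0.10, Cox8a -0.027, Ndufs5 -0.070 and Sdhd -0.055. With chromosome medians removed they were Cox8a -0.027 and Ndufa4 0.012. Leaving out each clone gave log2 differences of -0.12 to 0.14 for Cox6a1, -0.14 to 0.039 for Cox6b1, -0.13 to 0.14 for Cox7a2, -0.045 to 0.23 for Cox8a, -0.11 to 0.041 for Sdha, -0.014 to 0.17 for Sdhd and -0.15 to 0.033 for Uqcr11. The cause was not tested. For the other 486 values of these genes the direction and the side of the threshold were as reported. Outside the set, 2 settings ended the call of Bnip3 and 7 that of Egln3, while Pdk1 was called with DESeq2, with the block, within the 4 libraries and without control clone 1, Pdhb within the 4 libraries, and Ppargc1a with the block. Depth limits most the 5 untested genes and Cox4i2, with at most 26 reads in a library.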
